A study of Saccharomyces cerevisiae with 26 samples.

Results

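Transcript levels were compared between wt yeast and the gir2Δ strain, in which the reading frame of GIR2 is replaced by KanMX. The comparison covers 9 of the 26 libraries of the series, namely the RNA-Seq libraries of wt (5) and gir2Δ (4), and their members were taken by strain and batch as the sample labels give them. The remaining libraries are those of pub1Δ and the Ribo-Seq libraries, where Ribo-Seq is the sequencing of mRNA fragments protected by ribosomes. Each strain derives from BY4742 and carries MATalpha, his3Δ1, leu2Δ0, lys2Δ0 and ura3Δ0. The gir2Δ strain was made in the study by transforming BY4742 with a KanMX cassette amplified from a deletion collection strain, and how many transformants were sequenced is not stated. Cells were grown in rich glucose medium (YPD) at 30 °C to exponential phase, and mRNA was taken with oligo(dT) beads from the lysates that also gave the Ribo-Seq libraries. The labels place wt replicates 1, 4 and 5 and gir2Δ replicate 4 in batch 1, gir2Δ replicates 1 to 3 in batch 2, and wt replicates 2 and 3 in batch 4. Batch 2 held no wt library, so strain and batch cannot be told apart for gir2Δ replicates 1 to 3. The labels number the replicates without saying whether they were separate cultures, and the p-values below measure the spread between these libraries.

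Gir2 is the partner of the ribosome-binding GTPase Rbg2 and binds Gcn1, the ribosome-associated protein that activates the kinase Gcn2. Gcn2 phosphorylates eIF2 when amino acids are scarce, which lowers general initiation and raises translation of GCN4, the activator of amino acid biosynthesis genes. In yeast growing on glucose, the largest coordinated gene groups are those for ribosomes and their assembly, which follow growth, and those for reserve carbohydrates and stress protection, which go the opposite way under protein kinase A.

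Levels are given as normalised CPM, gene counts scaled to the library size after TMM correction. The wt libraries held 2217490 to 2917963 counts on genes and the gir2Δ libraries 2731434 to 3502037. A gene was tested where it reached 10 CPM or more in at least 4 RNA-Seq libraries, which left 5098 genes. The first principal component of the 14 RNA-Seq libraries held 64.6% of the variance and set the libraries of batches 1 and 2 (-21.7 to -16.6) apart from those of batches 3 and 4 (21.2 to 30.4). The alpha-cell genes MF(ALPHA)1, MF(ALPHA)2, STE3 and SAG1 were detected in each of the 14 libraries, MATALPHA1 and MATALPHA2 had 0 counts in each, and 6 a-cell genes had between 0 and 20 counts. Uniquely mapped reads alone were counted, so 0 counts of MATALPHA1 and MATALPHA2, which have a second copy in the genome, do not measure their expression. The auxotrophy genes URA3, LEU2 and LYS2 of BY4742 had 0 or 1 count per library, whereas HIS3, of which the strains carry the allele his3Δ1, had 136 to 366 counts.

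GIR2 (YDR152W, chromosome IV 765706 to 766503 of the R64 assembly) was looked at first, since it checks the strain labels. It had 375, 446 and 504 counts in the wt libraries of batch 1 and 2, 3, 1 and 16 counts in gir2Δ replicates 1 to 4. The 4 gir2Δ libraries therefore matched their label, and replicate 4 held the most remaining reads. The log2 change of GIR2 was -6.55 (SE 0.44, edgeR adjusted p 4.64e-10). The 4 nearest annotated genes on both sides were EKI1, KGD2, NUM1, CTH1, ENT5, CPR1, RPA14 and YDR157W. YDR157W was below the filter, and none of the other 7 was called in the comparison with wt of batch 1. Their changes lay between -0.25 for CPR1 and 0.17 for ENT5.

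The first comparison asked which transcripts differ when GIR2 is missing, and set the 4 gir2Δ libraries against the 3 wt libraries of batch 1. The quasi-likelihood test of edgeR called 219 of 5098 genes (4.3%) at a Benjamini-Hochberg adjusted p under 0.05, 88 higher in gir2Δ (1.73%) and 131 lower (2.57%). An unadjusted p under 0.05 was reached by 1123 genes (22%), both directions together. List counts at that limit below stand against this share. DESeq2 on the same libraries called 248 genes, 139 higher and 109 lower, and 156 of the 219 were among them. A gene was taken to move alike when each of the 4 gir2Δ libraries lay above, or each lay below, the range of the 3 wt libraries. This held for 510 tested genes above (10%) and 465 below (9.12%). Both conditions were met by 211 genes (4.14%), 87 higher (1.71%) and 124 lower (2.43%), which are described below. These values chose the genes, so the levels of single genes are given as a description. That gir2Δ did not overlap wt of batch 1 in any of them follows from the choice. The median change was 0.42 on the log2 scale for the higher genes, a factor of 1.34, and -0.52 for the lower genes, a factor of 1.44. A factor of 2 was passed by 13 genes, all of them lower. Just inside the limit were RPL8B among the higher genes (change 0.36, edgeR adjusted p 0.0496) and ESL2 among the lower (change -0.40, edgeR adjusted p 0.0493), and just outside it were RPP1A (change 0.42, edgeR adjusted p 0.0502) and OSH6 (change -0.34, edgeR adjusted p 0.0502). The genes named below are the 12 largest changes in each direction, those called with batch in the model, up to 3 per gene list and direction, and the pathway and neighbours of GIR2. Others, such as RSP5, CLG1, YNL190W, ALD4, GPD1, EMI2, GPP2, the Puf genes other than PUF3 and MPT5, CCR4, PUB1, PTR2 and ARX1, were named after their values were seen.

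**Figure D1:**
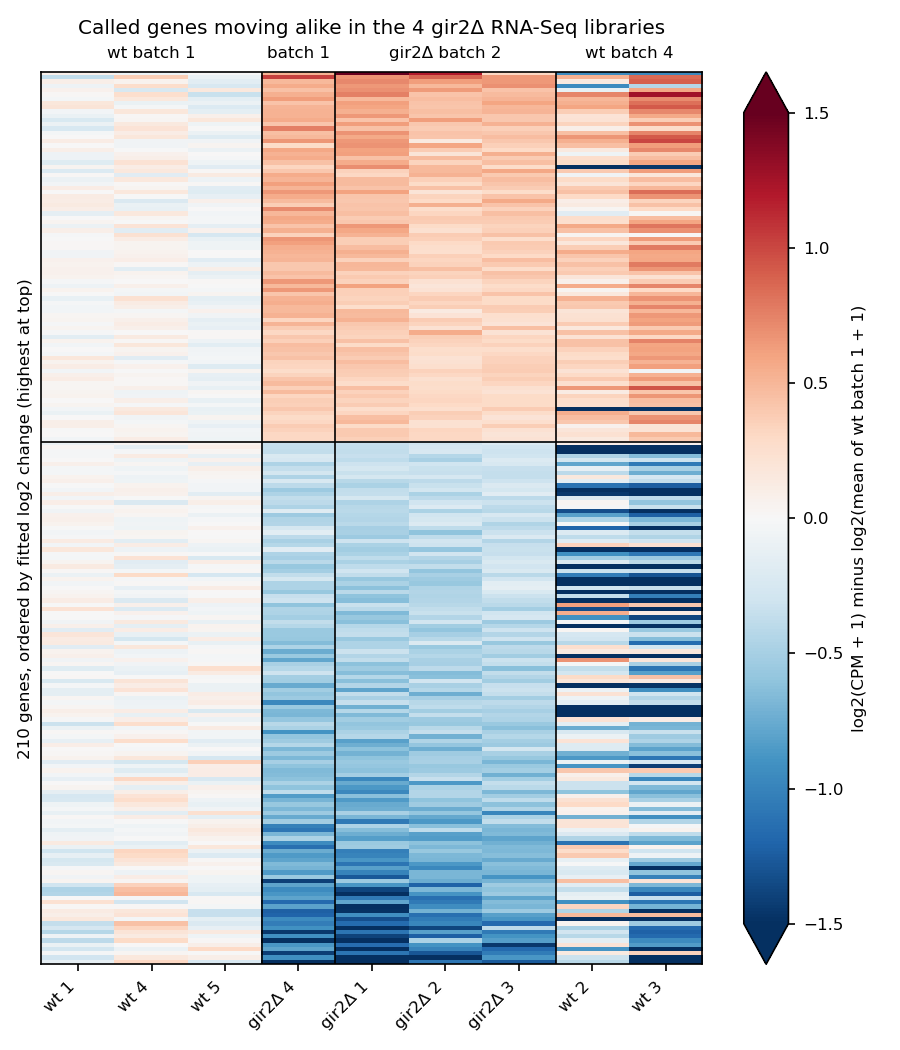
Level of the called genes moving alike (rows, GIR2 left out) in each wt and gir2Δ RNA-Seq library (columns), as the log2 difference from the mean of the 3 wt libraries of batch 1, with the horizontal line parting the higher from the lower genes. The 4 gir2Δ columns keep 1 colour on each side of the line because this chose the genes, whereas the wt columns of batch 4, which it did not use, often take the colour of gir2Δ or go beyond it.

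The wt libraries of batch 4 were not part of the choice. In 95 of the 211 genes, the mean of these 2 wt libraries lay at or beyond the gir2Δ mean on the same side of wt batch 1, among them 50 higher and 45 lower genes. Each gir2Δ library lay outside the range of all 5 wt libraries in 49 of the 211 genes, 14 higher and 35 lower, against 268 of all tested genes (5.26%), which were higher in 2.16% and lower in 3.1%. Part of the 49 is fixed by the choice, which required them to lie outside 3 of the 5.

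The calls rested on few libraries. The first comparison called 32 genes without wt replicate 5, 55 without wt replicate 1 and 402 without wt replicate 4. It called 92 genes without gir2Δ replicate 4, 95 without replicate 1, 126 without replicate 2 and 205 without replicate 3. Of the 211 genes, 26 were called in each of these 7 fits and 9 in none of them. The 26 included GIR2, HXK1, SRO9, SPO24, CAR2, TOH1, DED1, CWP1, RSP5, TDH1, GSP2, ALD4, PRB1, PUF3, YNL190W, APE1, HAC1, VMR1, TPS1, CCR4, GNP1, SEC14, FET3 and PUB1, which were lower, and RPL35B, which was higher. RSP5 is the main ubiquitin ligase for the uptake of membrane permeases. It stood at 158, 156 and 160 CPM in wt of batch 1 and at 148 and 125 in wt of batch 4. In gir2Δ replicates 1 to 4 it stood at 75.5, 71.7, 90.9 and 91.2, below each wt library, of which the choice used those of batch 1.

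Within batch 1 the single gir2Δ replicate 4 could be set against the 3 wt libraries without a batch difference, the lone library being assumed to vary like the wt libraries. This called 17 genes, each of them lower, of which 13 were among the 211. They were GIR2, HXK1, SRO9, DHH1, DED1, SPO24, GNP1, MIT1, VAC8, RSP5, CLG1, CWP1 and YNL190W. HXK1 changed there by -1.54 in log2 terms (SE 0.21, edgeR adjusted p 0.00701) and SRO9 by -1.47 (SE 0.23, edgeR adjusted p 0.00966). The 3 gir2Δ libraries of batch 2 alone called 92 genes, 26 higher and 66 lower. Fits with more libraries called fewer genes, 5 with all 5 wt libraries and no batch term and 2 with the 14 RNA-Seq libraries in 1 fit.

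The second comparison put batch and strain into 1 model of the 14 RNA-Seq libraries. It called 3 genes (0.0588%), GIR2, VAC8 and MIT1, each of them lower, while an unadjusted p under 0.05 was reached by 696 genes (13.7%). VAC8, a vacuolar membrane protein needed for vacuole inheritance, stood at 123, 124 and 119 CPM in wt of batch 1, at 103 and 96.1 in wt of batch 4 and at 87.3, 94.8, 86.6 and 65.2 in gir2Δ replicates 1 to 4. MIT1, a regulator of pseudohyphal growth, stood at 124, 120 and 137 CPM in wt of batch 1, at 114 and 98.9 in wt of batch 4 and at 99.7, 94.8, 96.9 and 64.3 in gir2Δ. Replicate 4 held the lowest level of both genes, and with batch in the model the gir2Δ estimate rests on it. VAC8 was below the range of the 5 wt libraries in each gir2Δ library, whereas MIT1 overlapped it. In this model VAC8 fell by 0.89 (SE 0.14, edgeR adjusted p 0.0174) and MIT1 by 0.97 (SE 0.16, edgeR adjusted p 0.0346). Both calls were lost without wt replicate 1 (edgeR adjusted p 0.0737 for VAC8 and 0.102 for MIT1), with batch as 2 levels (0.0953 and 0.0989) and without a batch term, and that of MIT1 was also lost with upper-quartile scaling and without wt replicate 2 or 5 or gir2Δ replicate 1 or 2. The wt and gir2Δ libraries alone gave 36 calls. ComBat-seq, the correction named by the study, followed by a fit of strain alone, gave 1667. Here it was run on the 14 RNA-Seq libraries and was given the strain groups, and the later fit took no account of the batch terms removed. Whether the study gave it groups is not stated.

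The genes that rose included many of ribosomes and their assembly. Among 139 tested cytosolic ribosomal protein genes, edgeR called 19 higher and 0 lower, where 1.73% of all tested genes were called higher. At an unadjusted p under 0.05, 79 were higher and 0 lower, and DESeq2 called 52 higher and 0 lower. Their median change was 0.22 on the log2 scale, against 0.0008 for all tested genes, and 131 of the 139 had a positive change. RPL35B, a protein of the large subunit, stood at 248, 279 and 258 CPM in wt of batch 1 and at 356, 365, 342 and 385 in gir2Δ replicates 1 to 4. RPL11B stood at 570, 675 and 575 CPM in wt of batch 1 and at 844, 776, 839 and 864 in gir2Δ. The gir2Δ libraries did not overlap wt of batch 1 for either gene, with changes of 0.47 (SE 0.08) and 0.45 (SE 0.09), but overlapped wt of batch 4, which stood at 314 and 362 CPM for RPL35B and at 742 and 835 for RPL11B. RPL7B changed by 0.48. Most yeast ribosomal protein genes have a near-identical copy, and since uniquely mapped reads alone were counted, the split between copies is uncertain.

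Among 180 tested ribosome biogenesis factors, edgeR called 25 higher and 0 lower, the median change was 0.23 and 170 had a positive change. At an unadjusted p under 0.05, 103 were higher and 3 lower, and DESeq2 called 37 higher and 1 lower. The leading genes act at different steps. DBP2 encodes an RNA helicase with roles in rRNA processing and mRNA assembly and rose by 0.56 (SE 0.12). DBP8 encodes a helicase of small subunit assembly and stood at 71.7, 82.0 and 66.3 CPM in wt of batch 1 and at 103, 101, 105 and 114 in gir2Δ, a change of 0.53 (SE 0.10, edgeR adjusted p 0.0126). IPI3, of the Rix1 complex of large subunit maturation, stood at 110, 91.2 and 91.5 CPM in wt and at 150, 131, 147 and 132 in gir2Δ, and RSA4, which acts with it on the pre-60S particle, changed by 0.52 (SE 0.11). For each of these 4 genes the gir2Δ libraries lay above wt of batch 1. For DBP8, DBP2 and IPI3 they overlapped wt of batch 4, where DBP8 stood at 104 and 121 CPM and DBP2 at 621 and 899. For RSA4 they (105.9 to 120.17 CPM) lay below both wt libraries of batch 4 (120.27 and 150.3 CPM).

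RNA polymerase I and III subunits followed the same direction, with 3 of 40 called higher (RPB8, RPC34 and RPO26) and a median of 0.16. RPB8, a subunit shared by the 3 nuclear polymerases, stood at 268, 290 and 250 CPM in wt of batch 1 and at 348, 344, 324 and 425 in gir2Δ. In purine and pyrimidine synthesis, 3 of 37 genes were called higher, with a median of 0.11. They were AAH1, adenine deaminase (0.42), IMD4, an IMP dehydrogenase (0.34), and HPT1, a purine salvage enzyme (0.30). In the proteasome 2 of 43 genes, PRE8 and PRE9 of the core particle, were called higher by edgeR, DESeq2 called 2 higher and 1 lower, 5 were higher and 5 lower at an unadjusted p under 0.05, and the median was 0.045. These counts stand against 1.73% of all tested genes called higher. The lists were also higher in the wt libraries of batch 4 than in those of batch 1, with medians of 0.35 for ribosomal proteins, 0.41 for biogenesis factors, 0.26 for the polymerases, 0.36 for purine and pyrimidine synthesis and 0.20 for the proteasome. The part of this spread among wt libraries in the values of gir2Δ was not tested.

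**Figure D2:**
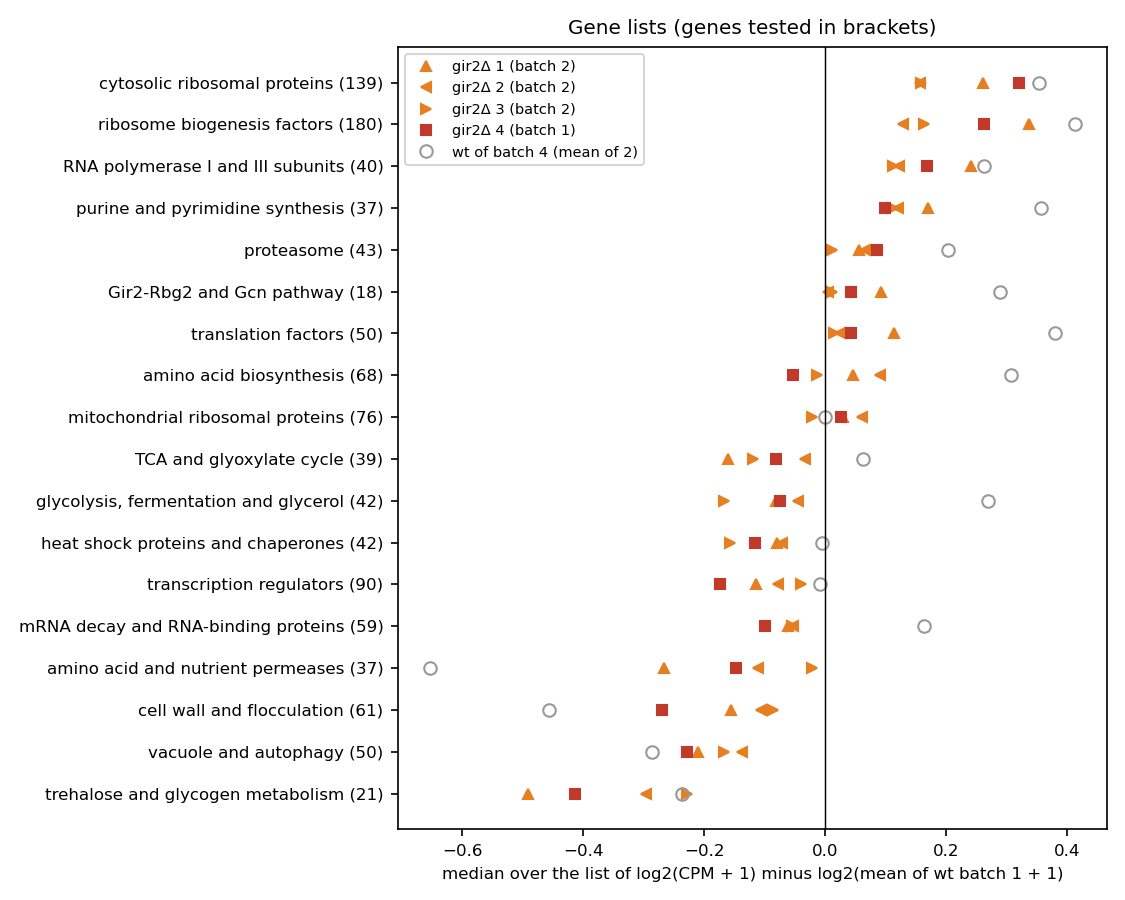
Median over each gene list (rows, genes tested in brackets) of the log2 difference from the mean of the wt libraries of batch 1, for each gir2Δ library (filled symbols) and for the mean of the wt libraries of batch 4 (open circles). The 4 gir2Δ libraries lie above 0 for ribosomal proteins (0.16 to 0.32) and below 0 for trehalose and glycogen genes (-0.49 to -0.23), and wt of batch 4 lies on the same side in both.

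The largest rise among the 87 genes was that of FUS1, a membrane protein of mating cell fusion. It stood at 43.4, 38.9 and 40.7 CPM in wt of batch 1, at 20.9 and 20.5 in wt of batch 4 and at 119, 94.4, 51.0 and 59.4 in gir2Δ replicates 1 to 4, with a change of 0.98 (SE 0.23, edgeR adjusted p 0.0307). The gir2Δ libraries differed from each other by more than a factor of 2 here, the high pair being replicates 1 and 2. FUS1 was 1 of 28 tested mating genes, and the single one called, while DESeq2 called 0 and 6 had an unadjusted p under 0.05 and were higher. Of all tested genes 1.73% were called higher, and 22% had an unadjusted p under 0.05 in either direction. HXT1, a low-affinity glucose transporter, stood at 183, 231 and 162 CPM in wt of batch 1, at 99.0 and 143 in wt of batch 4 and at 302, 269, 308 and 282 in gir2Δ, above each of the 5 wt libraries. It rose by 0.60 (SE 0.11, edgeR adjusted p 0.00798). MIG3, a repressor related to the glucose repressor Mig1, rose by 0.66 (SE 0.16) and was, with HXT1, 1 of 2 genes called among 22 hexose transporters and glucose sensors, whose median was -0.12. PHO3, an acid phosphatase, rose by 0.46 (SE 0.105) and was also above each wt library. The remaining genes among the 12 largest rises were KTI11 and EFM2, which modify translation components, IES3 of a chromatin remodelling complex, SPT14 of glycolipid anchor synthesis and YDR183C-A, which had no match in the annotation. These changed by 0.51 to 0.88.

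The genes that fell belonged to many groups. The 12 largest falls included those of GIR2, HXK1, AGP2, SRO9, TVS1, CMR1, TMA10, SPO24, BDH2, CAR2 and TOH1. Among those not described further, CMR1, a DNA-binding protein, changed by -1.17, TMA10, a ribosome-associated protein, by -1.15 and TVS1 by -1.23. Their levels were near the filter of 10 CPM, with means of 16.2, 14.9 and 14.7 CPM in wt of batch 1 and 7.21, 6.86 and 6.32 in gir2Δ. In wt of batch 4 the means were 13.7, 10.3 and 4.90 CPM. Of the 7 fits that left out 1 library, CMR1 and TVS1 were called in 6, TMA10 in 2 and BDH2 in 1. HXK1, a hexokinase that is repressed by glucose, stood at 134, 181 and 124 CPM in wt of batch 1, at 110 and 40.5 in wt of batch 4 and at 31.1, 67.7, 60.6 and 50.1 in gir2Δ replicates 1 to 4. It fell by 1.48 (SE 0.19, edgeR adjusted p 0.00115), and the gir2Δ range overlapped wt replicate 3. GLK1, the glucokinase, fell by 0.92 (SE 0.21), TDH1, a glyceraldehyde-3-phosphate dehydrogenase, by 0.84 (SE 0.14) and, outside the naming rule, ALD4, GPD1, EMI2 and GPP2 by 0.81, 0.63, 0.60 and 0.44. These were the 7 genes called among 42 of glycolysis, fermentation and glycerol, each of them lower, where 2.57% of all tested genes were called lower, while the median of the list was -0.089.

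Reserve carbohydrate genes were lower as a list, with a median of -0.29 over 21 trehalose and glycogen genes and a negative change in 20. Of these, 5 were called lower, where 2.57% of all tested genes were called lower. Of the 5, 3 moved alike in the gir2Δ libraries. They were GPH1, glycogen phosphorylase, by -0.97 (SE 0.21), TPS1, trehalose-6-phosphate synthase, by -0.57 (SE 0.11), and NTH2, a trehalase, by -0.54 (SE 0.12). TPS1 stood at 182, 238 and 176 CPM in wt of batch 1, at 229 and 144 in wt of batch 4 and at 113, 146, 139 and 138 in gir2Δ, so the gir2Δ libraries did not overlap wt of batch 1 and overlapped wt replicate 3. The list holds enzymes of both synthesis and breakdown, and the 3 genes include both. HSP104 and HSP82, chaperones that refold or mature other proteins, fell by 0.51 (SE 0.11) and 0.49 (SE 0.10). They were the 2 called of 42 heat shock genes, whose median was -0.12. DESeq2 called 1 of the 42 higher and 2 lower, and 3 were higher and 11 lower at an unadjusted p under 0.05. Among 51 genes of the oxidative and general stress response edgeR called 0 and DESeq2 1, which was lower, and the median was -0.10. At an unadjusted p under 0.05, 13 were lower and 0 higher, a total near the 22% of all tested genes in both directions.

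RNA-binding proteins of mRNA storage and decay made up another group. In this list edgeR called 7 of 59 genes, each of them lower, where 2.57% of all tested genes were called lower. DESeq2 called 3 lower and 1 higher, and 15 were lower and 4 higher at an unadjusted p under 0.05. The median was -0.069. DHH1, a DEAD-box helicase of decapping and translational repression, stood at 51.1, 50.6 and 47.3 CPM in wt of batch 1, at 68.5 and 56.9 in wt of batch 4 and at 33.8, 29.2, 30.3 and 18.2 in gir2Δ replicates 1 to 4. It fell by 0.84 (SE 0.17, edgeR adjusted p 0.0134), and gir2Δ lay below each wt library. PUF3, which binds mRNAs of mitochondrial proteins, stood at 61.0, 61.5 and 69.1 CPM in wt of batch 1, at 54.7 and 48.7 in wt of batch 4 and at 37.9, 36.0, 40.0 and 39.4 in gir2Δ, and fell by 0.74 (SE 0.11, edgeR adjusted p 0.0019). MPT5, also called Puf5, fell by 0.71 (SE 0.15). Of 6 Puf family genes, a list formed after the values were seen, PUF3, MPT5, JSN1 and PUF2 were called lower, while PUF4 and PUF6 changed by 0.031 and 0.22 and were not called. DESeq2 called 0 of the 6. The other 2 of the 7 were CCR4, the main deadenylase, at -0.54 (SE 0.10), and PUB1, the poly(U)-binding protein that is deleted in the third strain of the series, at -0.44 (SE 0.08). PUB1 stood at 274, 291 and 262 CPM in wt of batch 1, at 423 and 366 in wt of batch 4 and at 218, 206, 207 and 182 in gir2Δ, below each of the 5 wt libraries.

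SRO9 and DED1, whose products act on mRNA in translation, each fell by more than a factor of 2. SRO9, an RNA-binding protein of the La-motif family associated with polysomes, stood at 40.8, 42.7 and 41.7 CPM in wt of batch 1, at 45.9 and 53.3 in wt of batch 4 and at 18.9, 16.6, 19.6 and 15.1 in gir2Δ replicates 1 to 4, a fall of 1.25 (SE 0.14, edgeR adjusted p 0.000339). DED1, the DEAD-box helicase of initiation and scanning, stood at 116, 126 and 85.2 CPM in wt of batch 1, at 152 in both wt libraries of batch 4 and at 57.1, 49.4, 61.6 and 46.6 in gir2Δ, a fall of 1.01 (SE 0.14, edgeR adjusted p 0.0014). For both genes the gir2Δ libraries lay below each of the 5 wt libraries, and wt of batch 4 lay on the other side of wt of batch 1. DED1 was the single gene that edgeR called among 50 translation factors, a count near the 2.57% of all tested genes called lower. DESeq2 called 1 of the 50 higher and 2 lower. At an unadjusted p under 0.05, 7 were higher and 5 lower, a total near the 22% of all tested genes. The median change of the list was 0.041.

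**Figure D3:**
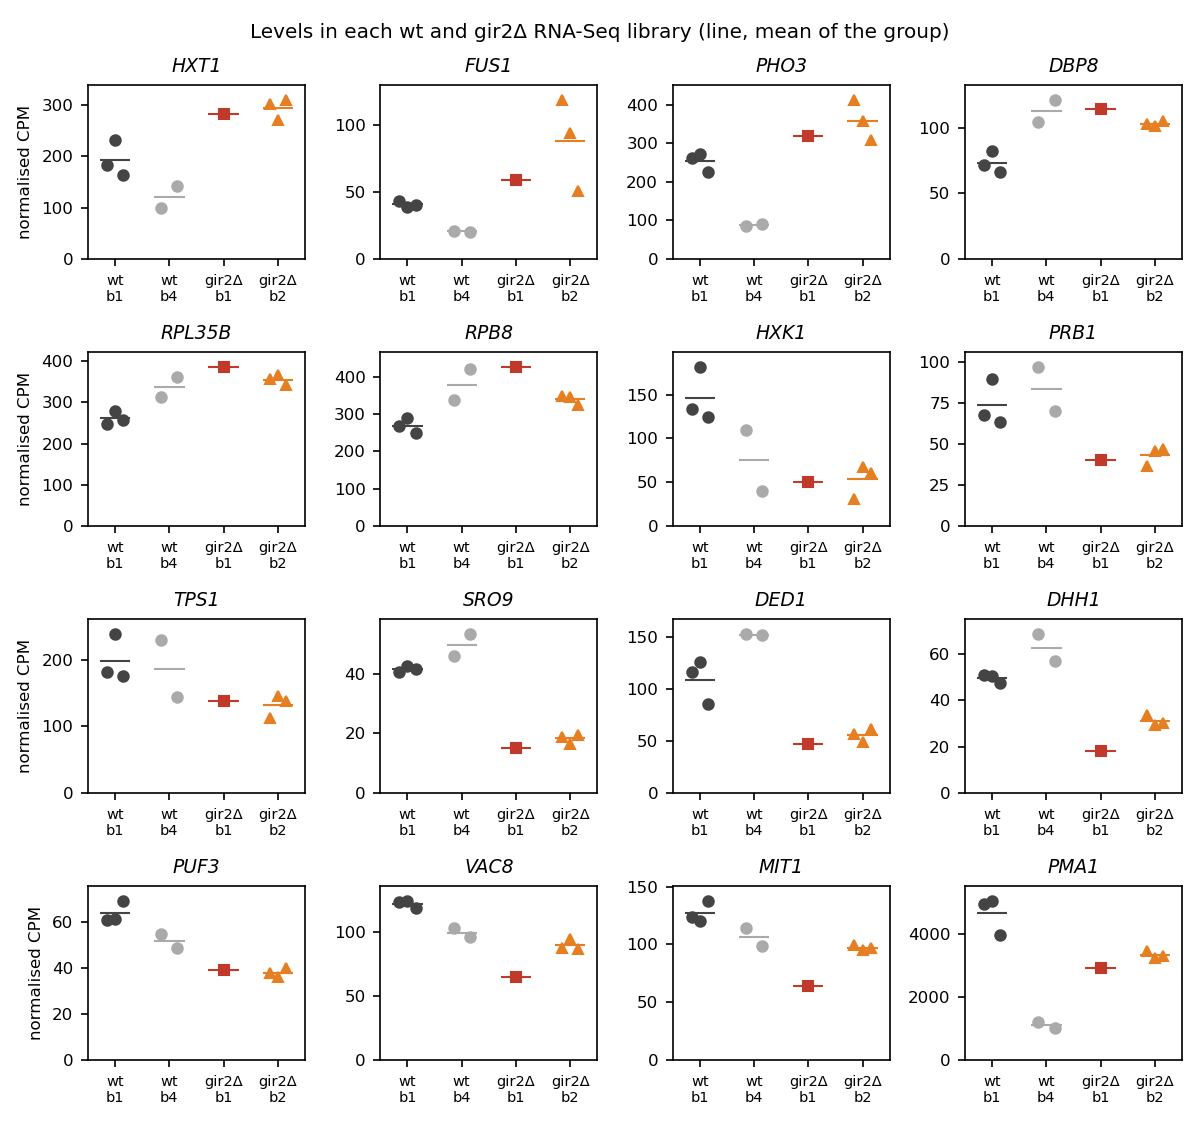
Normalised CPM of 16 genes in each RNA-Seq library, with wt of batches 1 and 4 in grey and gir2Δ of batches 1 (square) and 2 (triangles) in colour, and the mean of each group as a line, on axes that start at 0. SRO9, DED1, DHH1 and PUF3 are lower in each gir2Δ library than in each of the 5 wt libraries, whereas for DBP8, HXK1 and PMA1 wt of batch 4 overlaps gir2Δ or lies beyond it.

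Further lower genes lay at the cell surface and the vacuole, and the counts below stand against 2.57% of all tested genes called lower. Among 61 cell wall genes 7 were called, each lower, with a median of -0.15, while wt of batch 4 had a list median of -0.46 against wt of batch 1. CWP1, a mannoprotein, fell by 0.96 (SE 0.15) and GSC2, a glucan synthase subunit, by 0.59 (SE 0.11). Among 50 genes of the vacuole and autophagy 5 were called, each lower, with a median of -0.19, a negative change in 42 and a list median of -0.29 in wt of batch 4. PRB1, vacuolar protease B, stood at 67.4, 89.5 and 63.4 CPM in wt of batch 1, at 96.5 and 69.7 in wt of batch 4 and at 36.3, 45.8, 47.0 and 40.3 in gir2Δ replicates 1 to 4, below each wt library. APE1, an aminopeptidase, fell by 0.66 (SE 0.12). Among 37 genes listed as amino acid and nutrient permeases 4 were called, each lower, AGP2 by 1.30 (SE 0.24), GNP1 by 0.50 (SE 0.10), PTR2 by 0.46 and CAR2 by 1.09 (SE 0.15). The median of the list was -0.12, and in wt of batch 4 it was -0.65. CAR2 is ornithine aminotransferase of arginine breakdown and not a permease. PMA1, the plasma membrane proton pump, stood at 4944, 5020 and 3971 CPM in wt of batch 1, at 1204 and 1004 in wt of batch 4 and at 3447, 3231, 3295 and 2919 in gir2Δ. It was 1 of 3 genes called lower among 29 pumps, with PMR1 and STV1, and PMR1 turned to 0.0853 when all 5 wt libraries were fitted without a batch term. The level in wt of batch 4 lay far below gir2Δ for PMA1, as it did for GNP1 (109 and 118 CPM against 194 to 257 in gir2Δ). Lists formed after the values were seen held 5 of 9 phospholipid flippase genes and 6 of 11 ABC drug pump genes called lower, with medians of -0.40 and -0.35. In wt of batch 4 these lists had medians of -1.31 and -0.69 against wt of batch 1.

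In the following lists, too, 2.57% is the share of all tested genes called lower. In the TCA and glyoxylate cycle 4 of 39 genes were called, each lower, among them SDH1 by 0.69 (SE 0.15), KGD1 by 0.47 (SE 0.10) and PYC1 by 0.45 (SE 0.10). Among 90 transcription regulators 5 were called lower, with a median of -0.12, including GIS1, an activator of stationary phase genes, by 0.50 (SE 0.13), and GAL11, a mediator subunit, by 0.49 (SE 0.12). HAC1, the activator of the unfolded protein response, and SEC61, of the translocation channel, were called lower among 56 genes of secretion, at -0.60 and -0.36. This count lies near the share of all genes, and the list had a median of 0.030 and a positive change in 31. DESeq2 called 1 higher and 2 lower, and 3 were higher and 9 lower at an unadjusted p under 0.05. In the phosphate regulon 1 of 26 genes was called higher, PHO3 as given above, and 1 lower, PHM8 at -0.82 (SE 0.16), while 4 were higher and 4 lower at an unadjusted p under 0.05. FET3, CHO2, TOS1 and HAP1 were the single calls in the lists of metal regulons (37 tested), sterol and fatty acid synthesis (53), histones and cell cycle (52) and the respiratory chain (50). Each was lower, and such counts lie near the share of all genes. HAP1 encodes a transcription activator and TOS1 a cell wall protein, so these lists hold more than their names say. SDH1 was counted in the TCA list and not in that of the respiratory chain. When all 5 wt libraries were fitted without a batch term, FET3, CHO2 and SEC61 turned to 0.0244, 0.0539 and 0.1777. Of 21 aminoacyl-tRNA synthetases edgeR called 0, DESeq2 called 1 higher, 1 was higher at an unadjusted p under 0.05 and the median was 0.036. Of 28 genes of methionine and sulfate assimilation edgeR called 0, DESeq2 called 1 lower, 1 was higher and 3 lower at an unadjusted p under 0.05 and the median was -0.036. Of 76 mitochondrial ribosomal proteins edgeR and DESeq2 called 0, 4 were higher and 3 lower at an unadjusted p under 0.05 and the median was 0.020. In amino acid biosynthesis edgeR called 1 of 68 genes, which was lower and did not move alike, and the median was 0.032. DESeq2 called 0 higher and 1 lower there, and 8 were higher and 2 lower at an unadjusted p under 0.05.

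In the pathway around Gir2 itself, 1 of 18 genes was called, GIR2. RBG2, the GTPase partner of Gir2, stood at 130, 123 and 115 CPM in wt of batch 1, at 152 and 188 in wt of batch 4 and at 151, 136, 137 and 136 in gir2Δ replicates 1 to 4, with a change of 0.19 (SE 0.09, edgeR adjusted p 0.21). The related pair RBG1 and TMA46 changed by 0.027 (SE 0.09) and 0.063 (SE 0.11). GCN1, the binding partner of Gir2, changed by -0.0149 (SE 0.0949), and GCN20 and GCN2 by 0.13 (SE 0.08) and -0.23 (SE 0.10). GCN4 stood at 1732, 1930 and 1563 CPM in wt of batch 1, at 1700 and 1921 in wt of batch 4 and at 1828, 1965, 2456 and 2550 in gir2Δ, with a change of 0.34 (SE 0.12, edgeR adjusted p 0.114). The high pair of GCN4 was replicates 3 and 4, while replicate 1 overlapped wt. Without wt replicate 4 GCN4 was called, at 0.42. HEL2, SLH1 and CUE3, which act on collided ribosomes, changed by 0.064, -0.074 and 0.10, and RQT4 by 0.021. MBF1, the coactivator of Gcn4, changed by -0.22 (SE 0.08) and was called when the length trend described below was removed, at -0.31.

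The called genes differed in length, measured from start to stop codon with introns included. The median was 1284 bp for the tested genes, 898.5 bp for the higher and 2134.5 bp for the lower of the 211 genes. Genes over 2000 bp made up 24.4% of all tested genes, 5.81% of the higher and 54.0% of the lower genes. Across 5047 tested genes length and change had a Spearman correlation of -0.34, given as a description of genes measured in the same 7 libraries. With the genes split by length into 5 bins of like size, the median change of the bins went, from the shortest to the longest, from 0.079 to -0.11. With this trend removed from each library by a smooth curve over log2 length, 135 genes were called, 111 of them among the 211. The rest of the 211 lost their call. Each of the 211 kept its sign, which the choice largely fixed, since the smallest absolute change among them was 0.30. The median length was 771 bp in the list of ribosomal proteins and 2194.5 bp in that of transcription regulators.

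**Figure D4:**
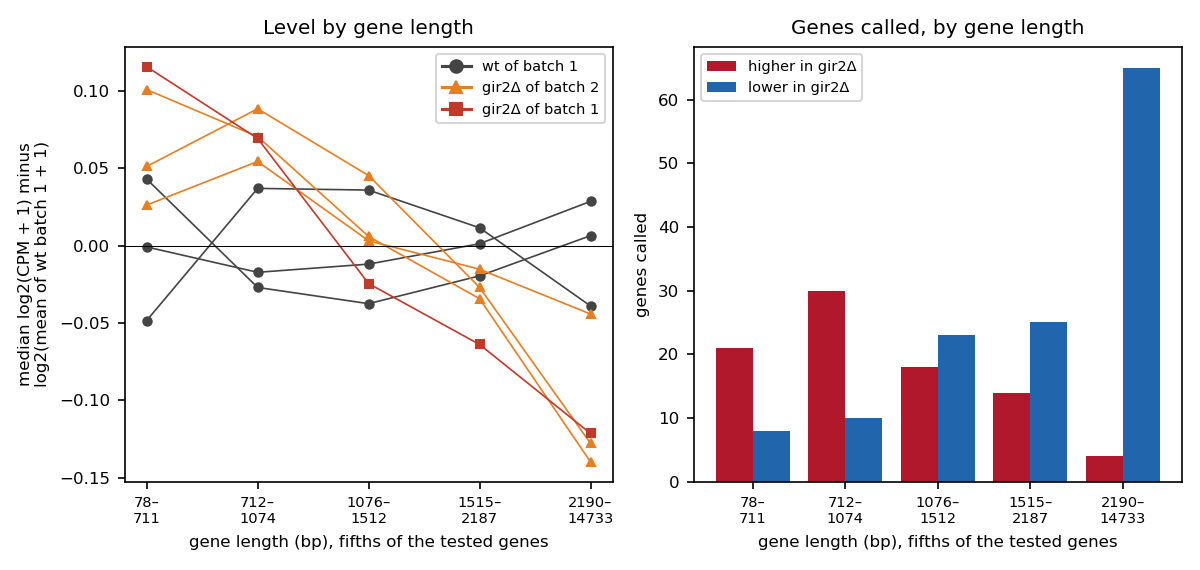
Left, median log2 difference from the mean of wt of batch 1 for each library in 5 bins of the tested genes by length, and right, the number of genes called higher and lower in each bin. The 4 gir2Δ libraries fall from between 0.026 and 0.12 in the shortest bin to between -0.14 and -0.044 in the longest, where 65 genes were called lower and 4 higher.

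Over the nuclear chromosomes the median change of the tested genes lay between -0.022 for chromosome III and 0.028 for chromosome VIII. The 211 genes made up from 10 of 130 tested genes on chromosome III to 19 of 676 on chromosome IV, beside 4.14% of all tested genes. Their spread over the chromosomes was not tested. Of the 211 genes, 110 were in at least 1 of the lists chosen for this comparison and 101 in none.

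Promoters were compared next, because genes that move together may share letters upstream of their start codon. The window was the 300 bases before the start codon in the R64 genome of RefSeq, read on both strands, for 5042 tested genes. The PAC element (GATGAG) and the core of the RRPE element (AAATTTT) are known from ribosome biogenesis genes, and the stress response element (AGGGG) is bound by Msn2 and Msn4. PAC occurred in 19.1% of the windows of tested genes, in 52.3% of the higher genes and in 10.6% of the lower genes without GIR2. The RRPE core occurred in 26.3%, 61.6% and 20.3% in the same order. Among the biogenesis genes PAC was found in 84.0% of the 25 called and in 83.9% of the 180 tested. The stress response element occurred in 22.1% of the windows of tested genes, 15.1% of the higher and 39.8% of the lower genes. The Gcn4 site (TGACTC) occurred in 8.09%, 6.98% and 5.69%, the Hap complex site (CCAAT) in 42.4%, 38.4% and 37.4%, and the Rap1 core (ACCCANNCA) in 3.15%, 10.5% and 2.44%. The letters of the RRPE core on 1 strand overlap those on the other, and those of the other motifs were counted on their own.

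Windows of 3 biogenesis genes among the 12 largest rises are shown to set these letters beside the values, with capitals for PAC and the RRPE core in either orientation. They are DBP8 (chrVIII:441881-442180, plus strand), RSA4 (chrIII:242353-242652, minus strand) and IPI3 (chrXIV:297628-297927, minus strand), each ending at the base before the start codon. In DBP8 and RSA4 the run that holds the RRPE core on both strands, counted as 2 overlapping matches, starts 148 and 125 bases before the start codon, and PAC starts 137 and 92 bases before it. IPI3 has 2 such runs and no PAC in this window.
DBP8: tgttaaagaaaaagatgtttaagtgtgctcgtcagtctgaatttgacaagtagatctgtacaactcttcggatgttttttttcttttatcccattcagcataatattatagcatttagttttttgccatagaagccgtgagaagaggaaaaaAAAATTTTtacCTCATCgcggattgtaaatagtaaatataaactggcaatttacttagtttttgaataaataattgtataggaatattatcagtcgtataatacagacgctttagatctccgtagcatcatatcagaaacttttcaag
RSA4: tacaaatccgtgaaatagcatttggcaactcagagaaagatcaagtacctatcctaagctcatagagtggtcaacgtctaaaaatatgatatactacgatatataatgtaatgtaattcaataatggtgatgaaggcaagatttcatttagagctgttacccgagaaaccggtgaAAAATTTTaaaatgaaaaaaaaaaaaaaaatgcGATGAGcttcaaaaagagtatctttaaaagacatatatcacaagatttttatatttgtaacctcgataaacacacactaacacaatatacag
IPI3: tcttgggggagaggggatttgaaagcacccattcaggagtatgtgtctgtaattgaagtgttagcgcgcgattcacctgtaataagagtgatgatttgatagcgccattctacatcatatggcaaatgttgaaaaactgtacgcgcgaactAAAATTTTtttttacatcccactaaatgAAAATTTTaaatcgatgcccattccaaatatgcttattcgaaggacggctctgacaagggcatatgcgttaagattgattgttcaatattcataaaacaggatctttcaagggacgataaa

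For the lower genes, the windows of TPS1 (chrII:490393-490692, minus strand) and HSP104 (chrXII:88323-88622, plus strand) each held 3 stress response elements, in capitals, and that of HXK1 (chrVI:255050-255349, minus strand), with the largest fall of the 124 genes after GIR2, held 0. The elements of TPS1 stood 278, 249 and 239 bases before the start codon, and those of HSP104 at 252, 220 and 172 bases.
TPS1: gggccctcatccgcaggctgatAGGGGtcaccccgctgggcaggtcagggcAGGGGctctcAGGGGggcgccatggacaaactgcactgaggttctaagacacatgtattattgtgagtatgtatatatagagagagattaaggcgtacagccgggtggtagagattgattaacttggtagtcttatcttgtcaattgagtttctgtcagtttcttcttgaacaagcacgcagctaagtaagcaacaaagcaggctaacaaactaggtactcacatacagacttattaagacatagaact
HSP104: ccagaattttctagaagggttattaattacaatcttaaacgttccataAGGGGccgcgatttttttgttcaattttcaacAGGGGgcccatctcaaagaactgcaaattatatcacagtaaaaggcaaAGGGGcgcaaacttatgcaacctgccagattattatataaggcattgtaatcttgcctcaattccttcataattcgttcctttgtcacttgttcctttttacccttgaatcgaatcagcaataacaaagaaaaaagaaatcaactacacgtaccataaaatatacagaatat
HXK1: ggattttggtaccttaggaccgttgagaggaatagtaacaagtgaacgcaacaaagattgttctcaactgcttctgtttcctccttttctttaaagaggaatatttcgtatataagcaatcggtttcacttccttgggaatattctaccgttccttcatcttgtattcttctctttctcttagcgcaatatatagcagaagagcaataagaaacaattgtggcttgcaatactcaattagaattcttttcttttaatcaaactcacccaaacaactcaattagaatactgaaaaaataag

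Ribo-Seq libraries of the same lysates gave a second readout for the named genes, with 4 gir2Δ libraries and 2 wt libraries of batch 1. These wt libraries were replicates 1 and 4. The labels list no Ribo-Seq library of wt replicate 5, which the first comparison used, so the wt sets of the assays differ. Here 25 of 4589 tested genes were called (0.545%). Of the 211 genes 204 were tested in Ribo-Seq, and 10 of them were called, 9 lower and 1 higher. The lower genes included GIR2, HXK1 by 0.97 (SE 0.16), SPO24 by 0.91 (SE 0.16), GPH1 by 0.93 (SE 0.14), CWP1 by 0.91 (SE 0.17) and CAR2 by 0.45 (SE 0.09), and the higher gene was ARX1, a factor of 60S export. HXK1 footprints stood at 285 and 292 CPM in wt and at 105, 195, 150 and 139 in gir2Δ replicates 1 to 4.

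The values of the assays lay apart for several RNA-binding proteins and also for genes of other functions. SRO9 footprints stood at 617 and 598 CPM in wt of batch 1 and at 571, 491, 620 and 579 in gir2Δ, a change of -0.10 (SE 0.09, edgeR adjusted p 0.669), beside the fall of 1.25 in RNA-Seq. DED1 footprints stood at 1416 and 1446 CPM in wt and at 1429, 1417, 1689 and 1618 in gir2Δ, a change of 0.10 (SE 0.08, edgeR adjusted p 0.613). DHH1 changed by -0.17 (SE 0.08) and MPT5 by 0.22 (SE 0.17) in Ribo-Seq. Outside the RNA-binding proteins, RSP5, GNP1 and PMA1 changed by -0.9421, -0.5027 and -0.5271 in RNA-Seq. In Ribo-Seq these 3 changed by -0.0853 (SE 0.0819), -0.0709 (SE 0.0824) and -0.0155 (SE 0.0584). Whether such a gap was more frequent among RNA-binding proteins than among other genes was not tested. In wt and gir2Δ the footprint ranges of SRO9 and DED1 overlapped. Among higher genes, RPL35B changed by -0.33 (SE 0.10) and SPT14 by -0.35 (SE 0.24) in Ribo-Seq. The difference between the assays was not tested for these genes.

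**Figure D5:**
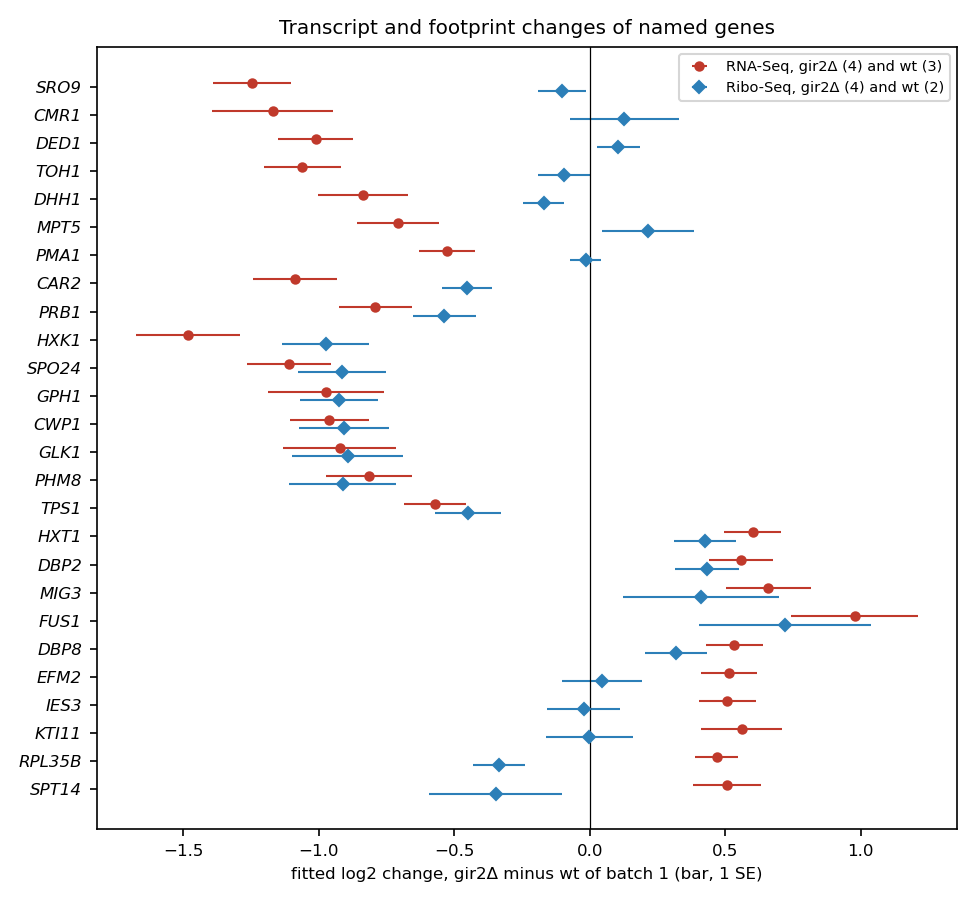
Fitted log2 change between gir2Δ and wt of batch 1 in RNA-Seq (circles) and Ribo-Seq (diamonds) for 26 named genes, with bars of 1 SE. HXK1, SPO24, GPH1 and CWP1 are lower in both assays, whereas SRO9, DED1, DHH1 and PMA1 are lower in RNA-Seq and lie between -0.17 and 0.10 in Ribo-Seq.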

How the data were processed

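RNA-Seq libraries of wt (5), gir2Δ (4) and pub1Δ (5) and Ribo-Seq libraries (12) were counted per gene by the authors, and the deposited values are raw counts of uniquely mapped reads on the sense strand. The submitters' processing notes name cutadapt 2.10, Bowtie2 1.2.3, STAR 2.7.9a and the R64 genome. The series table was identical to the library files in 26 of 26 columns. Lines without a gene were left out of library sizes (9.616% to 13.964% without a feature in the wt and gir2Δ RNA-Seq libraries).

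Genes with 10 CPM or more in at least 4 RNA-Seq libraries were kept (5098 of 7036). TMM factors came from the 14 RNA-Seq libraries. The quasi-likelihood test of edgeR 4.0.16 in R 4.3.3 was run on gir2Δ (4) against wt of batch 1 (3), then with batch as a term over 14 libraries, and on Ribo-Seq, with p-values adjusted over the genes tested (Benjamini-Hochberg, 0.05). DESeq2 1.42.0, ComBat-seq of sva 3.50.0, other scalings, filters, unstranded counts, removal of the length trend, a replicate block and omission of single libraries were alternatives. The code was tested on simulated data. List medians per library used log2(CPM + 1). Coding lengths, introns included, and promoter windows came from RefSeq R64, where 5047 of the tested genes matched.

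The groups followed titles and batch labels. The comparison, its gene lists and the naming rule (the 12 largest changes per direction, genes called with batch in the model, up to 3 per list and direction, the Gcn pathway and 4 neighbours per side) were chosen with earlier results of these data known. The genotype label of pub1Δ replicate 1 names gir2 while its title names pub1. It was used as pub1Δ and had 894 GIR2 counts. Results of 1 gene, and of a list that needs it, are not reported here.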

Additional observations from a re-analysis of the deposited data

Results flagged for a closer look

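Among 186 groups of 4 or 5 libraries checked gene by gene, 11 held a library far from the others. Chance gives about 1 in 20 where the libraries of a group are alike. The wt groups mix batches 1 and 4, and many of the genes were chosen by their values, so that rate is not a yardstick here. In gir2Δ, MIT1 stood at 64.3 CPM in replicate 4 and at 94.8 to 99.7 in the others, and MIT1 is 1 of the 3 genes called with batch in the model, which rests on that replicate. NTH2 stood at 67.5 CPM in gir2Δ replicate 4 (others 59.6 to 60.9), RBG2 at 151 in replicate 1 (others 136 to 137), CUE3 at 66.3 in replicate 3 (others 78.8 to 80.7) and MBF1 at 525 in replicate 2 (others 493 to 494).

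In wt, 5 of the 6 flagged values belonged to replicate 3 of batch 4. They were MIG3 at 34.6 CPM (others 16.1 to 20), TDH1 at 39.2 (others 73.5 to 86.2), APE1 at 36 (others 54.9 to 59.8), PHM8 at 5.01 (others 23.4 to 27.2) and MBF1 at 444 (others 569 to 614). For these 5 genes this library lay on the gir2Δ side of the other wt libraries, and it was not part of the first comparison. GAL11 stood at 136 CPM in wt replicate 2 (others 81.6 to 95.7).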

How the results depend on the processing

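The first comparison called 219 genes, 211 of them moving alike. Median-of-ratios and upper-quartile scaling, filters and unstranded counts gave 189 to 285 calls, and TMM over the 7 libraries, chosen after seeing the data, gave 211. DESeq2 gave 248, with 139 higher and 109 lower in place of 88 and 131. Removal of the length trend left 135 calls (131 alike), all 14 libraries in 1 fit 2 (2 alike), all 5 wt libraries without a batch term 5 (5 alike), batch 1 alone 17 (17 alike) and the batch 2 gir2Δ libraries alone 92 (91 alike). Omission of 1 library gave 32 (without wt replicate 5) to 402 (without wt replicate 4), and 32 to 401 alike. With all 5 wt libraries and no batch term, FET3 (0.0244), CHO2 (0.0539), SEC61 (0.1777) and PMR1 (0.0853) were the named genes that changed sign, and 194 of the 211 genes kept theirs. The cause was not tested.

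With batch in the model, 3 genes were called, against 8 with median-of-ratios scaling, 22 with DESeq2, 14 without a filter, 12 with unstranded counts, 9 with the length trend removed, 36 with wt and gir2Δ alone, 1 without a batch term, 4 with batch as 2 levels, of which 1 was among the 3, and 1667 after ComBat-seq (836 higher, 831 lower). Omission of 1 library gave 1 (without wt replicate 1) to 19 (without pub1Δ replicate 1, the library whose genotype label names gir2), with 12 without pub1Δ replicate 3, 9 without wt replicate 4 and 7 without wt replicate 3. Without gir2Δ replicate 4 this contrast could not be estimated.

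Replicate numbers did not pair the libraries, with correlations of deviations of 0.197 and 0.040 for replicates 1 and 4 in the first comparison and of -0.158 to 0.026 over the 9 libraries. A replicate block gave 69 calls (45 alike) in the first comparison and 10 with batch in the model, where 2 of the 3 calls were kept and MIT1 was lost.

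Depth of 2217490 to 3502037 counts limits genes near 10 CPM, and the batch layout limits the rest.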

Other observations

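Within batch 1, 4 genes that the first comparison did not call were lower in gir2Δ replicate 4 than in the 3 wt libraries, GEM1, a mitochondrial GTPase, by 1.67 on the log2 scale, WHI3, an RNA-binding protein, by 1.23, ROX1, a repressor of hypoxic genes, by 1.14, and DIP5, an amino acid permease, by 0.90. In batch 2 against the same wt libraries they changed by -0.43, -0.29, -0.29 and -0.42, and none was called there.

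The alpha-cell genes STE3 and SAG1 parted the wt libraries by batch. STE3 stood at 504, 383 and 470 CPM in wt of batch 1, at 73.1 and 83.4 in wt of batch 4 and at 601, 499, 391 and 401 in gir2Δ replicates 1 to 4. SAG1, the alpha-agglutinin, stood at 375, 325 and 330 CPM in wt of batch 1, at 70.2 and 62.4 in wt of batch 4 and at 810, 531, 238 and 262 in gir2Δ, so gir2Δ replicates 1 and 2 were above and replicates 3 and 4 below wt of batch 1, as replicates 1 and 2 were also the highest for FUS1.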
